A study of Mus musculus with 46 samples.

Results

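Neuronal RNA-binding proteins decide which exons of a transcript are kept and how long the messenger RNA lasts, and neurons draw on a small set of families for this. The Rbfox proteins bind GCAUG elements beside alternative exons, and Rbfox3 is the antigen known as NeuN, used as a marker of mature neurons. Nova1 and Nova2 bind clusters of YCAY motifs and govern exons of synaptic proteins. The neuronal Elavl proteins, also called HuB, HuC and HuD, bind U-rich and AU-rich elements and act on stability, translation and splicing. Celf4 binds GU-rich elements in transcripts of excitability and synapse genes. Khdrbs2, also called SLM1, is a STAR-family protein known for its part in alternative splicing of neurexins.

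The 10 genes Rbfox1, Rbfox2, Rbfox3, Nova1, Nova2, Elavl2, Elavl3, Elavl4, Celf4 and Khdrbs2 were taken by name from a deposited table of read counts for 22800 genes, and all 10 were found there. They were followed through 46 mouse neurons: 23 from an Sst Cre driver line and 23 from an Htr3a Cre driver line. Every cell was labelled as an OLM interneuron, an inhibitory cell of hippocampal stratum oriens that sends its axon to stratum lacunosum-moleculare. Each had passed quality control, and its cytosol had been drawn into a patch pipette at postnatal day 21 to 30. A Cre driver marks cells in which its gene is or has been active, so the lines name the way in which a cell was found, and both groups were labelled as the same cell type. No further allele or agent is given in the labels. The comparison asks whether OLM cells found through the 2 lines carry the same transcripts, here for how often each regulator was read, at what level, and which paralogue of a family led. The labels name no animal, so each line was treated as 1 sample, the lines were not tested against each other and no p-values are reported. Intervals are exact 95% intervals that cover counting error over cells or reads only, and SDs are between cells.

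The Sst-line cells held 5639490 to 31386369 assigned reads, with a median of 6569 genes read, and the Htr3a-line cells held 3391829 to 26136222, with a median of 8169 genes read. Summed pan-neuronal markers, of which Rbfox3 is one, had a median of 9643 CPM (reads scaled to 1000000 per cell) in Sst-line cells and 8878 in Htr3a-line cells. The GABAergic and OLM markers had medians of 13997 CPM in the Sst line and 21027 CPM in the Htr3a line, with all 8 genes read in each. Glutamatergic markers had low medians, of 24.8 CPM (0 to 270) in the Sst line and 41.5 CPM (0 to 258) in the Htr3a line. Slc17a7 and Slc17a6 were at 0 in every Sst-line cell. The other 5 had reads in the Sst line, and all 7 had reads in the Htr3a line. Markers of glia were read as well. Microglial markers had medians of 774 CPM in the Sst line and 448 CPM in the Htr3a line, oligodendrocyte markers 196 CPM in the Sst line and 114 CPM in the Htr3a line, and astrocyte markers 143 CPM in the Sst line and 89.3 CPM in the Htr3a line. Cldn11 was at 0 in every cell of both lines, and Aqp4 in every Sst-line cell. Their part in the values below was not tested.

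A pair of Htr3a-line cells stood apart from the rest in some other genes. Replicate 4 held 4 reads of Gad1, a GABA-synthesising enzyme, and its oligodendrocyte markers summed to 13314 CPM, the highest of the line. It also held 4975 reads of Gad2, the other such enzyme, 40772 reads of Sst and a pan-neuronal sum of 6989 CPM. Replicate 20 had the fewest reads of all cells, 3391829, with 24 reads of Gad1, 5 reads of Gad2, 9 reads of Syt1, and a pan-neuronal sum of 1664 CPM, the lowest of the line. It held 217096 reads of Sst. Both lacked Rbfox1, Rbfox3, Nova1 and Nova2. Line differences of the Rbfox, Nova and Elavl genes, and the number of regulators per cell, are also given without both.

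The regulators within a family resemble each other, and the counts separate them only as far as their transcripts differ. The windows below show the stretch around the longest coding run that a pair of paralogues shares, in the GRCm38 build with GENCODE M21 transcripts. Each is written 5′ to 3′ in the sense of the gene, and capitals mark the positions that are not the same in all 3 paralogues, which are 14 of 60 in the Rbfox window and 13 of 60 in the Elavl window. The Rbfox1 window lies on the plus strand at chr16:7292236-7294087 across exons 7 and 8. The Rbfox2 window lies on the minus strand at chr15:77102922-77105618 across exons 6 and 7. The Rbfox3 window lies on the minus strand at chr11:118501612-118502883 across exons 8 and 9.
Rbfox1: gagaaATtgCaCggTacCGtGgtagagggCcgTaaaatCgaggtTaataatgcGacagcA
Rbfox2: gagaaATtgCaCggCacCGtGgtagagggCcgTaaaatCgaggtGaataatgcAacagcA
Rbfox3: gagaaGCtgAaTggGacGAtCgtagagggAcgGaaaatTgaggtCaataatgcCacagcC
The Elavl windows all lie within exon 7 on the minus strand, at chr4:91253321-91253380 for Elavl2, chr9:22018584-22018643 for Elavl3 and chr4:110206413-110206472 for Elavl4.
Elavl2: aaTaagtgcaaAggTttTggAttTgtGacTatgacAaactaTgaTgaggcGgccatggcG
Elavl3: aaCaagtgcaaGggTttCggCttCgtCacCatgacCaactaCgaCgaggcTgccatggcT
Elavl4: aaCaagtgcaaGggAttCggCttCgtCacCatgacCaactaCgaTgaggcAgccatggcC

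The longest coding run shared within a family was 29 bases, between Rbfox1 and Rbfox2 and again between Elavl3 and Elavl4. Nova1 and Nova2 shared no coding run longer than a 15-base CAG-type repeat, gcagcagcagcagcc. No 31-base word of any of the 3 families occurred in a second paralogue, although coding sequences were 69.6% to 78.3% identical. Reads of a paralogue that long therefore had no perfect match in another. Words shared with other genes made up at most 3.75% of a regulator's words. The highest value was that of Elavl3, whose largest single exon overlap with a predicted gene on its own strand was 220 bases. Nova1 followed with 3.25% and a largest such overlap of 310 bases. Nova2 overlaps a gene on the opposite strand, over 2046 bases in the largest single exon overlap. No source used here states whether the counting was stranded, so the origin of reads in that stretch cannot be told apart.

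In the Rbfox family Rbfox1 was lower in the Sst line by the mean over cells, and Rbfox2 was read in fewer Sst-line cells. Rbfox3 had no steady direction. Rbfox1 (chr16:5885355-7411526 in GRCm38, as for all genes below) had a read in 19 of 23 Sst-line cells (82.6%, interval 61.2% to 95.05%), against 21 of 23 Htr3a-line cells (91.3%, 72.0% to 98.9%). Its level ran from 0 through a median of 63.8 to 257 CPM in the Sst line, and from 0 through 108 to 269 CPM in the Htr3a line. The lines overlapped over nearly their whole range, but the lower part of it was filled mainly by Sst-line cells. Among cells with a read, the lowest level was 1.99 CPM in the Sst line and 34.7 CPM in the Htr3a line, and the medians were 73.8 CPM in the Sst line and 122 CPM in the Htr3a line. The mean log2(CPM + 1) was 5.11 ± 2.71 in Sst-line cells and 6.31 ± 2.13 in Htr3a-line cells (SD, n = 23 each), a line difference of -1.20, which is smaller than either SD. The sum of all reads gave 80.8 CPM (79.8 to 81.7) in the Sst line and 135 CPM (133 to 136) in the Htr3a line. The log2 ratio was -0.73, with 1 added to each sum here and in all ratios of sums below. The 2 Htr3a-line cells without Rbfox1 were replicates 4 and 20. Without them all of the 21 cells left had Rbfox1, and the difference was -1.80, a shift set in direction because both cells were at 0. In the Sst line, replicates 15, 17, 19 and 22 had none, and leaving out any 1 of the 4 brought the difference to -0.97, so that it no longer reached a size of 1.

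Rbfox2, the paralogue also found widely outside neurons, was read in fewer Sst-line than Htr3a-line cells. Among cells with a read its median was higher in the Sst line, while its mean log2(CPM + 1) was nearly equal with Htr3a-line replicates 4 and 20 kept. Rbfox2 (chr15:77078990-77307004) had a read in 16 of 23 Sst-line cells (69.6%, 47.1% to 86.8%), against 21 of 23 Htr3a-line cells (91.3%, 72.0% to 98.9%). Where it was read, the median was 17.5 CPM in Sst-line cells and 10.9 CPM in Htr3a-line cells, and the mean log2(CPM + 1) was 3.65 and 3.69. Replicates 4 and 20, the highest Htr3a-line cells, raise the latter mean. It ran from 0 through a median of 2.82 to 75.05 CPM in the Sst line and from 0 through 10.5 to 733 CPM in the Htr3a line. The top of that range was replicate 20 at 733 CPM (2486 reads), followed by replicate 4 at 325 CPM (2916 reads), the cells that had no other Rbfox read. Replicate 4 is also the cell with 13314 CPM of oligodendrocyte markers and replicate 20 the one with 1664 CPM of pan-neuronal markers, and the part of either in these values was not tested. The next Htr3a-line cell was at 89.1 CPM. The line difference of -0.83 moved to -0.30 without these 2 cells, and the summed level was 18.4 CPM for the Sst line, against 31.5 CPM for the Htr3a line. At a stricter minimum of 10 CPM, Rbfox2 was present in 9 Sst-line cells and 12 Htr3a-line cells.

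Rbfox3 (chr11:118489762-118911597) had reads in 19 Sst-line cells, against 21 Htr3a-line cells, from 0 through a median of 37.5 to 208 CPM in the Sst line and from 0 through 44.0 to 104 CPM in the Htr3a line. The Sst-line values reached higher, and the ranges overlap. Its median in cells with a read was 73.4 CPM among Sst-line cells and 51.8 CPM among Htr3a-line cells, while the line difference was -0.12 and the log2 ratio of sums was 0.31. With 1 cell left out the difference lay between -0.33 (without Htr3a-line replicate 4 or 20) and 0.09 (without Sst-line replicate 2, 7, 16 or 17), and without both of those Htr3a-line cells it was -0.57. Each of these cells was at 0, so the shifts were set in direction. No direction is read from the line difference. The NeuN gene was at 0 in Sst-line replicates 2, 7, 16 and 17 and in Htr3a-line replicates 4 and 20. The pan-neuronal markers of these cells summed to 8286 CPM in Sst-line replicate 2, 10077 in 7, 8788 in 16 and 11538 in 17. They summed to 6989 CPM in Htr3a-line replicate 4 and 1664 CPM in Htr3a-line replicate 20.

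**Figure D1:**
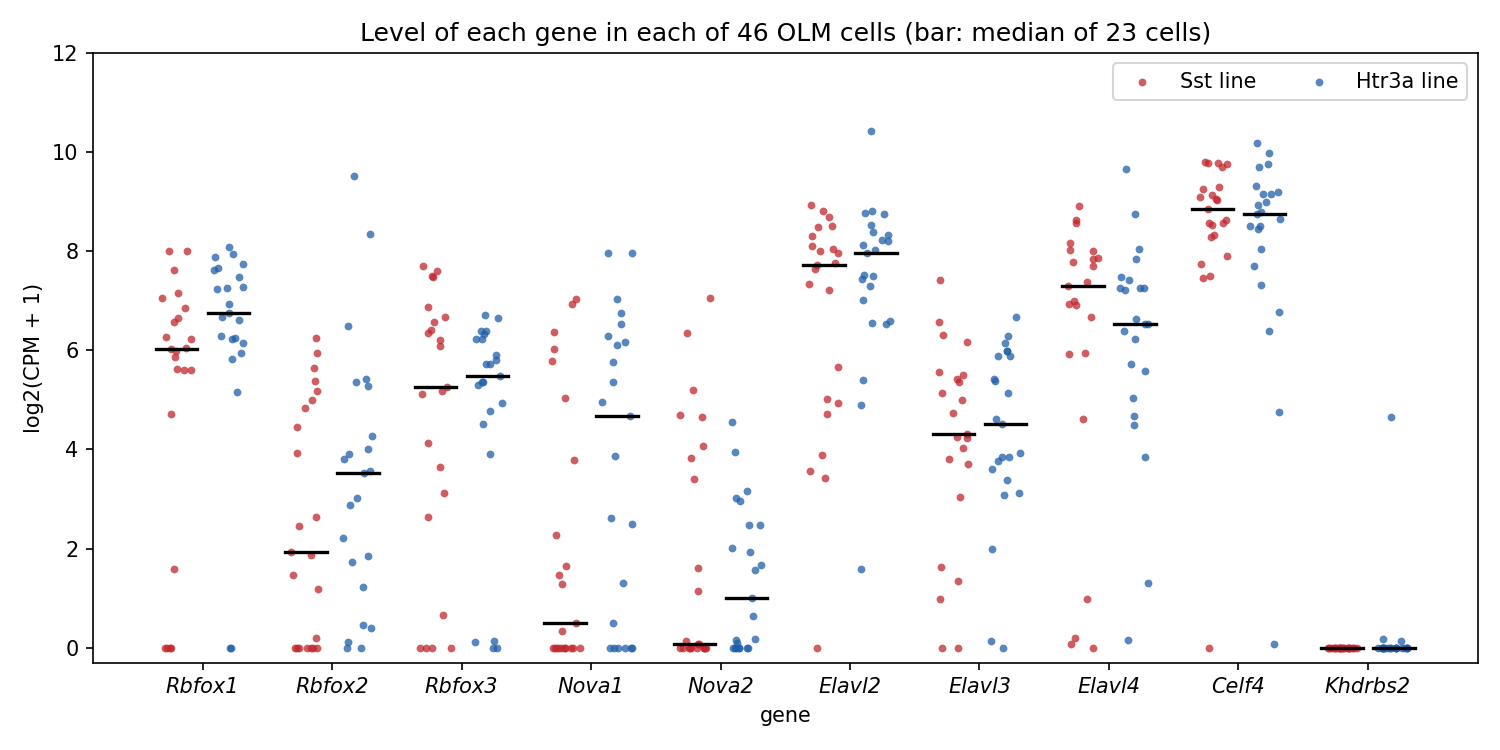
Level of the 10 genes as log2(CPM + 1) in each cell, with Sst-line cells left of Htr3a-line cells and a bar at the median of 23 cells. Points of the lines overlap for every gene, Rbfox1 has 4 Sst-line cells at 0, and the highest Rbfox2 points are the Htr3a-line replicates at 733 and 325 CPM.

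Paralogue choice was set per cell as the family member with the most CPM per kb of merged exons, in cells with at least 10 family reads. All 23 cells of each line passed this minimum for Rbfox. Rbfox1 led in 13 Sst-line cells (56.5%, 34.5% to 76.8%) and in 19 Htr3a-line cells (82.6%, 61.2% to 95.05%). Rbfox3 led in 8 Sst-line cells (34.8%, 16.4% to 57.3%) and in 2 Htr3a-line cells (8.70%, 1.07% to 28.04%). The intervals of the lines overlap for each paralogue. By reads without length, Rbfox1 led in 43.5% of Sst-line cells, Rbfox3 in 39.1% and Rbfox2 in 17.4%. Rbfox1 then led in 78.3% of Htr3a-line cells. The size of the Rbfox1 lead in the Sst line thus depends on the length used. Rbfox2 led in 2 cells of each line, and the 2 Htr3a-line cells were replicates 4 and 20, so that it led in none of the other 21. Without those 2 cells Rbfox1 led in 90.5% of Htr3a-line cells, a rise set in direction because Rbfox2 led in both.

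The leading share was rarely total. It had a median of 70.8% of the family's CPM per kb in Sst-line cells and 76.2% in Htr3a-line cells, and reached 90% in 8 Sst-line and 5 Htr3a-line cells. Only 1 paralogue was read in 4 Sst-line cells: Rbfox3 in replicates 15, 19 and 22, and Rbfox2 in replicate 17, where it had 50 reads. All 3 had a read in 12 Sst-line cells, against 19 Htr3a-line cells. The family total had a median of 33.3 CPM per kb in the Sst line and 39.9 CPM per kb in the Htr3a line. It fell to 0.33 CPM per kb in Sst-line replicate 17 and 1.20 CPM per kb in Sst-line replicate 8, against a lowest value of 12.96 CPM per kb in the Htr3a line.

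**Figure D2:**
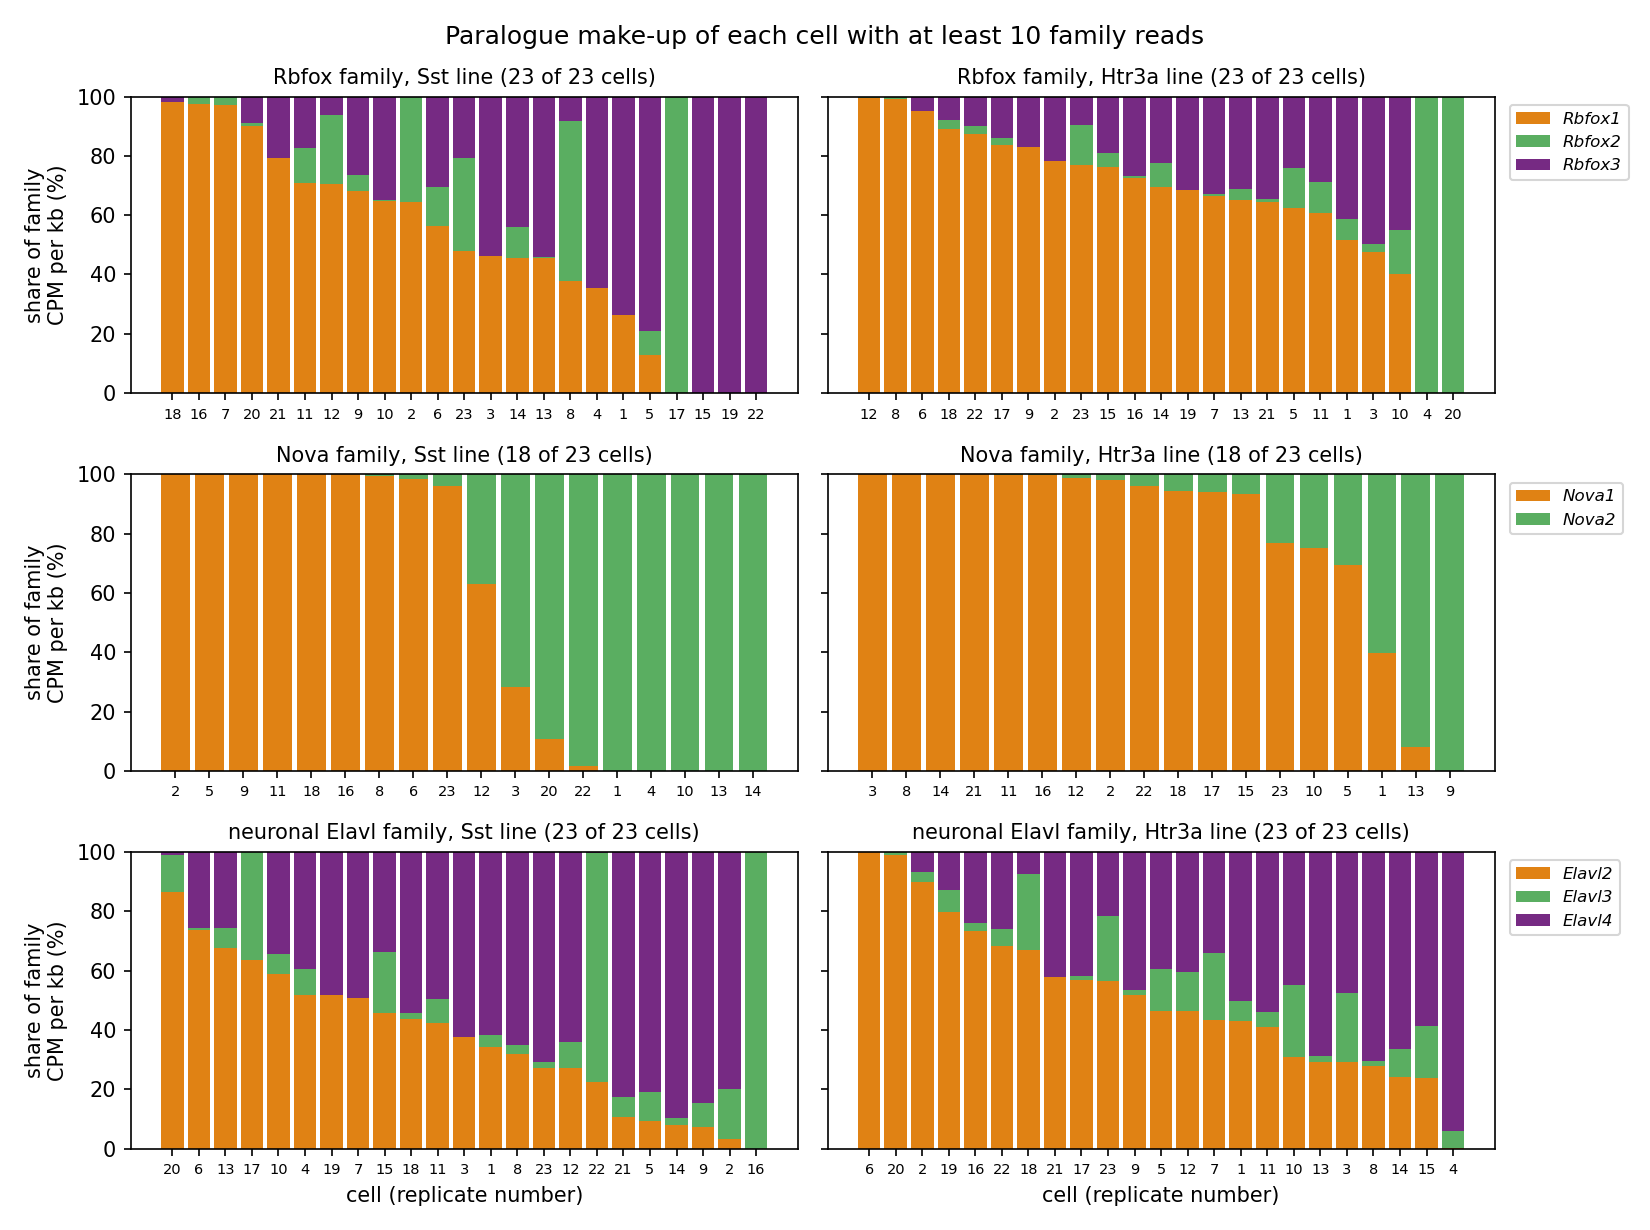
Share of each paralogue in its family's CPM per kb (%), 1 bar per cell and labelled by replicate number, with Sst-line cells in the left panels and Htr3a-line cells in the right panels. Rbfox1 leads in 13 Sst-line and 19 Htr3a-line cells, 1 Nova gene makes up at least 90% of the bar in 15 of 18 Sst-line and 14 of 18 Htr3a-line cells with at least 10 Nova reads, and Elavl bars are mostly mixtures of Elavl2 and Elavl4.

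The Nova genes were read less often than Rbfox1 or Rbfox3, and in most cells with Nova reads a single paralogue made up nearly the whole family. Nova1 (chr12:46694517-46818929) had a read in 13 of 23 Sst-line cells (56.5%, 34.5% to 76.8%), against 17 of 23 Htr3a-line cells (73.9%, 51.6% to 89.8%). It ran from 0 through a median of 0.42 to 130 CPM in the Sst line and from 0 through 24.4 to 250 CPM in the Htr3a line, so most Sst-line cells lay near 0 and the ranges still overlapped. In cells with a read the medians were 12.8 CPM in the Sst line and 53.4 CPM in the Htr3a line. The mean log2(CPM + 1) was 2.11 ± 2.68 in the Sst line, against 3.76 ± 2.97 in the Htr3a line (SD, n = 23 each), a difference of -1.65 that is smaller than either SD. The summed levels were 23.2 CPM (22.7 to 23.7) in the Sst line and 53.3 CPM (52.5 to 54.1) in the Htr3a line, which is a log2 ratio of -1.17. Without Htr3a-line replicates 4 and 20 the difference was -2.005, a shift set in direction because both cells were at 0. With any 1 cell left out it stayed between -1.87 and -1.46, and the ratio of sums between -1.58 without Sst-line replicate 16 and -0.83 without Htr3a-line replicate 18.

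Nova2 (chr7:18925888-18965319) had reads in 13 Sst-line cells and 16 Htr3a-line cells. It ran from 0 through 0.058 to 133 CPM in the Sst line and from 0 through 0.99 to 22.4 CPM in the Htr3a line. In cells with a read the median reached 13.1 CPM for the Sst line, against 2.93 CPM for the Htr3a line. At least 10 CPM was reached in 7 Sst-line cells, against 2 Htr3a-line cells, and 3 Sst-line and 4 Htr3a-line cells held fewer than 10 reads. The line difference was 0.46. The summed levels were 16 CPM for the Sst line, against 4.04 CPM for the Htr3a line. With 1 added to each sum this is a log2 ratio of 1.75. Sst-line replicate 3 alone held 40.1% of the Sst-line reads. Without it the Sst-line sum was 10.1 CPM and the ratio 1.14, and the line difference was 0.22. The line difference of Nova2 was 0.32 without Htr3a-line replicates 4 and 20, which were both at 0, and 0.08 with the deposited normalized table.

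Counted per cell, Nova1 led in 10 of the 18 Sst-line cells with at least 10 Nova reads (55.6%, 30.8% to 78.5%) and in 15 of 18 such Htr3a-line cells (83.3%, 58.6% to 96.4%). Nova2 led in the other 8 Sst-line cells and the other 3 Htr3a-line cells. The intervals overlap. The leader held at least 90% of the family's CPM per kb in 15 of the 18 Sst-line cells and in 14 of the 18 Htr3a-line cells, which for Rbfox was so in 8 of 23 Sst-line and 5 of 23 Htr3a-line cells. The Nova family total had medians of 1.47 CPM per kb in the Sst line and 3.46 CPM per kb in the Htr3a line. For the 3 Rbfox genes these were 33.3 and 39.9 CPM per kb. The part of low Nova counts in the leader's share was not tested. In Sst-line replicates 1, 4, 10, 13 and 14 Nova2 was the only Nova gene read. Nova1 was the only one in Sst-line replicates 2, 5, 9, 11 and 18. Neither was read in 5 Sst-line cells and 3 Htr3a-line cells. Over all 46 cells the Spearman correlation between Nova1 and Nova2 was 0.14, a weak value over cells that share depth and genes read.

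The neuronal Elavl genes were read in nearly every cell of both lines, and none differed by a size of 1 over all cells. Elavl2 (HuB, chr4:91250763-91400785) was read in 22 of 23 Sst-line cells and in all 23 Htr3a-line cells. It ran from 0 through 210 to 487 CPM in the Sst line and from 2.01 through 249 to 1374 CPM in the Htr3a line, the highest being replicate 20. Its line difference was -0.79 and its log2 ratio of sums -0.18, with 200 CPM in the Sst line and 228 CPM in the Htr3a line. The difference passed a size of 1 without Htr3a-line replicate 4 alone (-1.06), and it was -0.93 without replicates 4 and 20. The lower quartile of cells with a read was 36.2 CPM in the Sst line, against 112 CPM in the Htr3a line.

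Elavl4 (HuD, chr4:110203722-110351909) also had reads in 22 Sst-line cells, against 23 Htr3a-line cells, from 0 through 156 to 481 CPM in the Sst line and from 0.12 through 91.4 to 803 CPM in the Htr3a line. The highest cell was Htr3a-line replicate 4, with 7203 reads. The line difference was 0.0044, with a log2 ratio of sums of 0.49, and it was -0.06 without Htr3a-line replicates 4 and 20. Elavl3 (HuC, chr9:22015005-22052023) had reads in 21 Sst-line cells, against 22 Htr3a-line cells, with medians of 18.8 CPM (0 to 170) in the Sst line and 21.9 CPM (0 to 101) in the Htr3a line. Its line difference was -0.17, or -0.13 without that pair of cells, and its log2 ratio of sums was 0.17, which changed sign without Sst-line replicate 17 (-0.13).

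All 46 cells had at least 10 neuronal Elavl reads. Elavl4 led per kb in 12 Sst-line cells (52.2%, 30.6% to 73.2%) and 9 Htr3a-line cells (39.1%, 19.7% to 61.5%). Elavl2 led in 9 Sst-line cells (39.1%, 19.7% to 61.5%) and 14 Htr3a-line cells (60.9%, 38.5% to 80.3%). The intervals overlap, and with the longest transcript in place of merged exons as the length, Elavl2 led in 47.8% of Sst-line cells and Elavl4 in 43.5%, so the order within the Sst line turns with the length used. Elavl3 led in 2 Sst-line cells and 0 Htr3a-line cells. These were Sst-line replicate 16, where it held 99.9% of the family and Elavl2 was at 0, and replicate 22, where it held 77.2%. The median share of the leader was 64.9% in the Sst line, against 58.8% in the Htr3a line, and all 3 genes had a read in 19 Sst-line cells, against 22 Htr3a-line cells. The leader reached 90% in 1 Sst-line and 4 Htr3a-line cells.

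Celf4 (chr18:25477632-25754157) had the highest level of the 10 genes, both in CPM per kb and in reads. It was read in 22 of 23 Sst-line cells, the exception being replicate 3, and in all 23 Htr3a-line cells, of which replicate 6 held 1 read. It ran from 0 through 459 to 885 CPM in the Sst line and from 0.060 through 432 to 1168 CPM in the Htr3a line. The line difference was 0.30, smaller than the SD of 1.98 in the Sst line and of 2.16 in the Htr3a line (n = 23 each). It was -0.06 without Htr3a-line replicate 6 and -0.34 in cells with at least 5000 genes read, so no direction is given. The summed levels were 448 CPM in the Sst line and 466 CPM in the Htr3a line.

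Khdrbs2 (chr1:32172714-32658568) was almost unread. It had 0 reads in the Sst line, and 0 of 23 cells still allows 13.04% of cells with a read by a limit of 3 counts, or 14.8% by the upper end of the exact interval. In the Htr3a line it had reads in 3 of 23 cells (13.04%, 2.78% to 33.6%): 449 reads in replicate 10, 2 in replicate 23 and 1 in replicate 8. Replicate 10 held 99.3% of the reads and was the cell with the most genes read, 12693. Its STAR-family paralogue Khdrbs3, also called SLM2, gave the opposite picture. Khdrbs3 was read in all 46 cells, from 55.1 through 306 to 630 CPM in the Sst line and from 84.6 through 216 to 537 CPM in the Htr3a line, and it led the Khdrbs family per kb in 23 of 23 cells of each line. Its share of the family had medians of 87.2% in the Sst line, against 90.8% in the Htr3a line, with the remainder nearly all from Khdrbs1, the gene of Sam68. These wider families were described after their values had been seen.

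Among 6 Celf genes, Celf4 led per kb in 20 of 23 Sst-line cells (87.0%, 66.4% to 97.2%) and in 17 of the 22 Htr3a-line cells with at least 10 Celf reads (77.3%, 54.6% to 92.2%). Celf6 led in 1 Sst-line and 3 Htr3a-line cells, Celf2 in 2 Sst-line cells, and Celf1 and Celf3 in 1 Htr3a-line cell each. When Elavl1, the widely expressed HuR gene, was set beside the neuronal Elavl genes, it led in 0 Sst-line cells and 1 Htr3a-line cell.

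**Figure D3:**
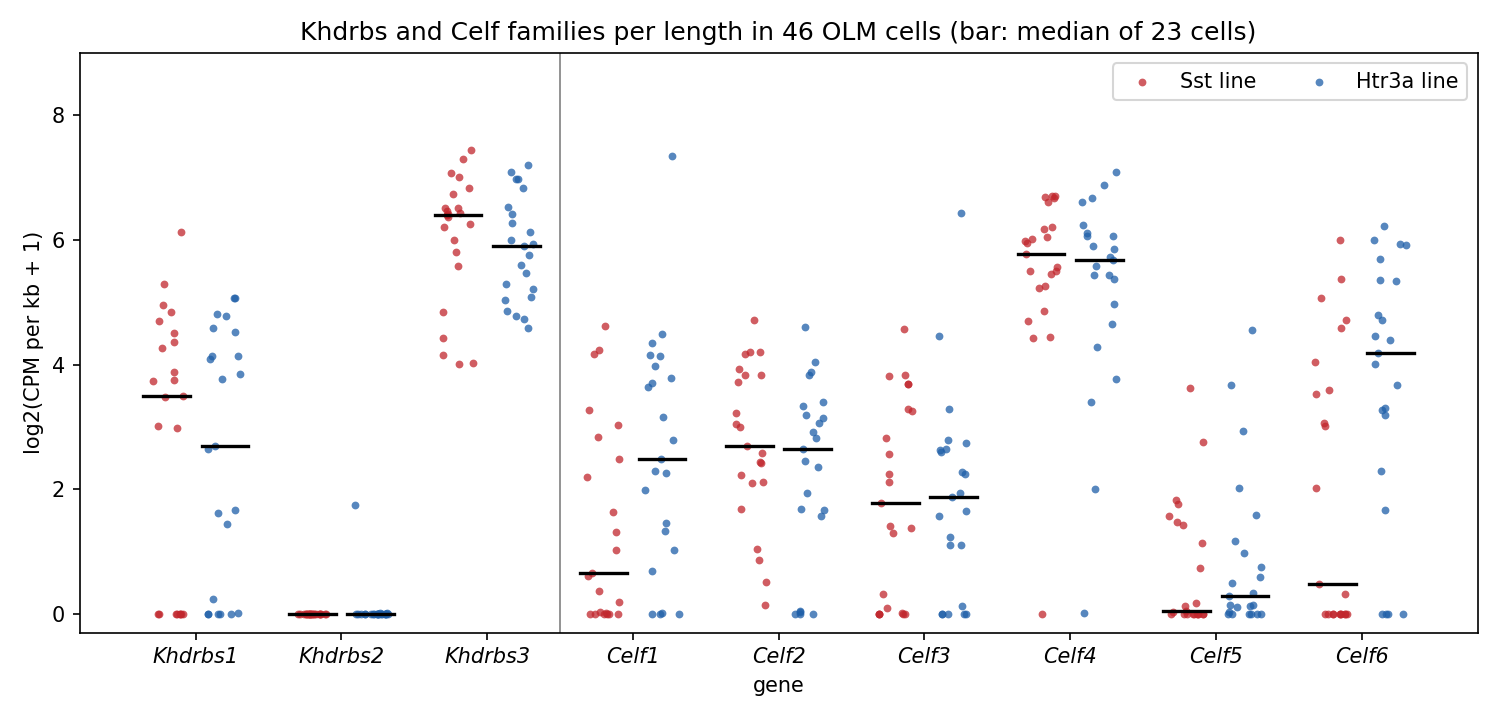
Level of the Khdrbs and Celf genes as log2(CPM per kb + 1) in each cell, with Sst-line cells left of Htr3a-line cells and a bar at the median of 23 cells. Khdrbs3 lies above 0 in all 46 cells, Khdrbs2 is at or near 0 in all but 1 Htr3a-line cell, and Celf4 is the highest Celf gene by its median in both lines.

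Ordered by the median CPM per kb over all 46 cells, Celf4 came first at 51.1. Elavl2 followed at 25.6, Elavl4 at 23.1 and Rbfox1 at 17.5, and the interquartile ranges of these 4 overlap. Rbfox3 stood at 7.25 and Elavl3 at 2.95. Rbfox2 had 0.72, Nova1 0.34, Nova2 0.041 and Khdrbs2 0. Each pair of neighbours down to Nova2 had overlapping interquartile ranges. These ranges leave out that all genes were read in the same cells, so they cannot show whether neighbours were separated within cells. By these ranges Celf4 lay clear of Rbfox3 and of every gene below it, and Elavl2, Elavl4 and Rbfox1 lay clear of Elavl3 and those below it.

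A minimum mean log2(CPM + 1) of 0.5 was met by 9 of the 10 genes, Khdrbs2 being the exception, and by 11196 genes of the table. Of these 9, 2 were lower in the Sst line by at least 1 (Rbfox1 and Nova1), against 14.9% of all genes above the minimum. None was higher by at least 1, against 4.24% of all genes. The median line difference of the 9 was -0.17, and that of all genes was -0.22. With 1 cell left out the median of the 9 lay between -0.37 and -0.07, and it was -0.48 at a minimum mean of 2. Among genes read in at least 12 cells, 1 of the 9 (Rbfox2) was read in at least 5 fewer Sst-line cells, against 17.2% of 10004 genes, and 0 in at least 5 more, against 0.92%. With so few genes these counts lie near the background, and they are not a result about the set. The number of genes below 0 was 6 of 9, against 7014 of 11196 of all genes.

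**Figure D4:**
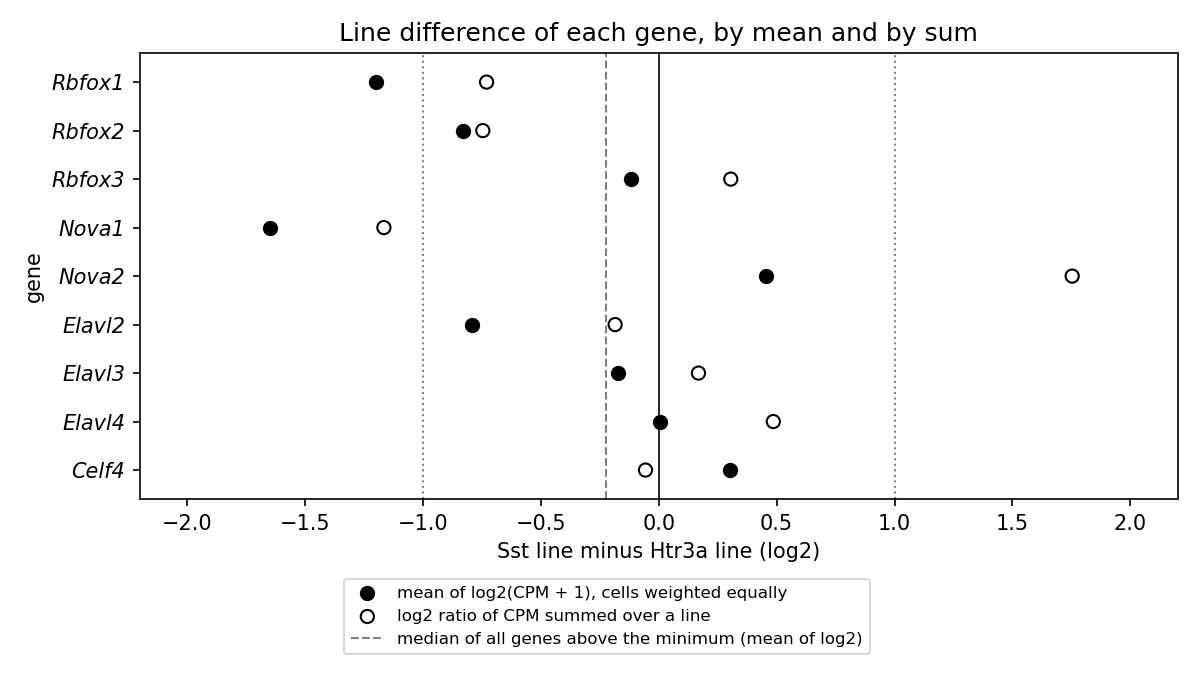
Sst line minus Htr3a line (log2) for the 9 genes above the minimum, as the mean over cells (filled) and as the ratio of summed CPM (open). For the ratio, 1 was added to each sum. Dotted lines stand at a size of 1 and the dashed line at the median of all genes, -0.22. Nova1 lies past -1 by both measures, Rbfox1 by the mean, and Nova2 lies past 1 by the sum.

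Counted together, a cell held a median of 8 of the 10 genes in the Sst line (range 4 to 9, mean 7.26 ± 1.51) and 9 in the Htr3a line (5 to 10, mean 8.26 ± 1.42; SD, n = 23 each). Without Htr3a-line replicates 4 and 20, with 5 each, the Htr3a-line mean was 8.57. At least 8 had a read in 12 Sst-line cells, against 20 Htr3a-line cells, and 6 or fewer in 6 Sst-line and 3 Htr3a-line cells. The lowest were Sst-line replicates 17 and 19, each with 4. Replicate 17 kept Rbfox2, Elavl2, Elavl3 and Celf4, and replicate 19 kept Rbfox3, Elavl2, Elavl4 and Celf4. Htr3a-line replicates 10 and 23 had all 10.

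The number of regulators read moved with the number of genes read in the cell (Spearman 0.68 over 46 cells, given as a description). Sst-line replicate 17 had the fewest genes read of all cells, 3225, and Htr3a-line replicate 10 the most. The lines also differed in genes read, with medians of 6569 in the Sst line, against 8169 in the Htr3a line. After thinning each cell to 5000000 reads, the medians of genes read were 6485 in 23 Sst-line cells and 7897 in 22 Htr3a-line cells, and the median number of regulators was 8 in each line, with means of 7.17 in the Sst line, against 8.05 in the Htr3a line. The part of genes read in the line differences of single regulators was not tested. In cells with at least 5000 genes read, a choice made after seeing the data, the means were 7.6 in the Sst line, against 8.75 in the Htr3a line.

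**Figure D5:**
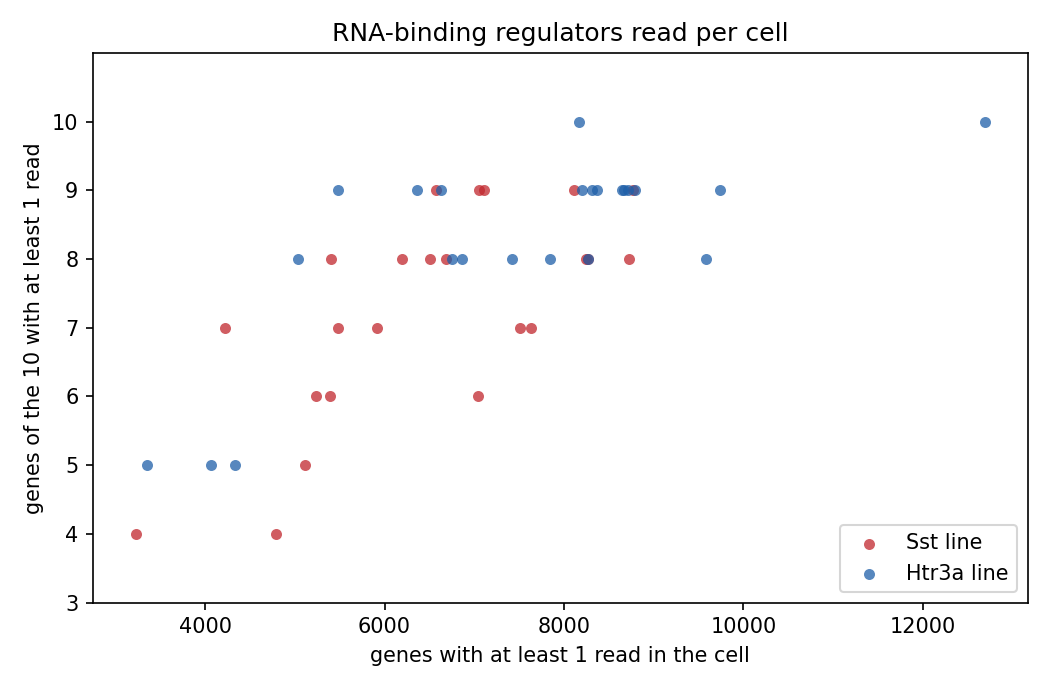
Number of the 10 genes with at least 1 read in a cell against the number of all genes with at least 1 read in that cell, with the lines in separate colours. Sst-line cells range from 4 to 9 and Htr3a-line cells from 5 to 10, and cells with few genes read lie low in both lines.

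Between the regulators themselves the levels moved together little. Over 46 cells that share depth and genes read, the highest Spearman correlation was 0.33 between Rbfox1 and Nova1, followed by 0.32 between Rbfox3 and Nova2 and 0.31 between Elavl3 and Celf4. The lowest was -0.28 between Rbfox2 and Elavl2. Rbfox1 and Rbfox3 had 0.048, and were read together in 16 Sst-line cells, against 21 Htr3a-line cells. The gene whose pattern was most like a regulator's, among 7093 compared, was Gmppb for Rbfox1 (0.63), Jdp2 for Rbfox2 (0.55), Agk for Rbfox3 (0.59), Slc22a17 for Elavl2 (0.60), Cnnm1 for Elavl3 (0.56), Asb13 for Elavl4 (0.61) and Sugp1 for Celf4 (0.68). The median of this best value over 3628 genes read as often was 0.63, and of these 7 partners only that of Celf4 lay above it.

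Other RNA-binding proteins give the setting. Of 8 further Elavl, Celf and Khdrbs genes, 2 were lower in the Sst line by at least 1 and 1 higher, with a median line difference of -0.10. Celf6 had a median of 1.42 CPM in the Sst line and 62.0 CPM in the Htr3a line (difference -2.24), and Celf1 had 4.795 CPM in the Sst line and 38.8 CPM in the Htr3a line (-1.85). The log2 ratios of sums were -1.16 for Celf6 and -1.11 for Celf1. Celf2 had medians of 141 CPM in the Sst line and 137 CPM in the Htr3a line with a mean difference of 1.13 and a log2 ratio of sums of 0.31. It had reads in 23 Sst-line cells, against 21 Htr3a-line cells. Of 17 other tissue-specific splicing regulators 15 were read and 11 lay above the minimum, and of these 3 were lower and 1 was higher, with a median of -0.75. Among them Srrm4, the regulator of neuronal microexons, had a median of 15.8 CPM in the Sst line and 2.06 CPM in the Htr3a line (1.28). Mbnl1, a muscleblind splicing factor, had 42 CPM in the Sst line and 114 CPM in the Htr3a line (-1.25), and Srrm3, a paralogue of Srrm4, had 0.80 CPM in the Sst line and 13.5 CPM in the Htr3a line (-1.18). By the ratio of sums these stayed under a size of 1, at 0.90 for Srrm4, -0.30 for Mbnl1 and -0.23 for Srrm3.

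The general splicing factors had list medians near 0, with genes on either side. Of 12 SR proteins 2 were lower and 0 higher (median -0.08): Srsf4 had a difference of -1.30 and Srsf6 of -1.24, and Srsf1 had -0.89. Their log2 ratios of sums were -0.47 for Srsf4, -0.41 for Srsf6 and -0.04 for Srsf1. Of 18 hnRNP proteins 1 was lower and 1 higher (median -0.03), with Hnrnpul1 at -1.12, Hnrnpul2 at -0.90 and Hnrnpa2b1 at 1.07. The ratios of sums of these hnRNP genes were -0.80 for Hnrnpul1, -1.20 for Hnrnpul2 and 0.43 for Hnrnpa2b1. Hnrnpa2b1 had reads in 23 Sst-line cells, against 21 Htr3a-line cells, with medians of 662 CPM in the Sst line and 522 CPM in the Htr3a line. Of 13 regulators of messenger RNA transport and translation 2 were lower and 1 higher (median -0.27): Stau1, a double-stranded RNA-binding transport protein, had -1.80, with reads in 12 Sst-line cells, against 20 Htr3a-line cells. Cpeb4, which acts on polyadenylation, had -1.36, and Syncrip had 1.13. By the ratio of sums Syncrip stayed past a size of 1 (1.25), while Stau1 (-0.67) and Cpeb4 (-0.29) did not. These counts can be set beside the 14.9% and 4.24% of all genes. Counts of reads per gene do not measure exon use, so none of these values speaks to splicing itself.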

How the data were processed

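Single-cell RNA libraries of 46 cells were analysed, 23 per Cre driver line. The authors deposited raw read counts per gene by symbol and by Ensembl identifier, and the 10 genes had identical counts in both tables. A second deposited table holds a linear normalized signal, each count divided by 1 factor per cell (0.144 to 2.09), and served as an alternative. Trimmomatic, STAR, featureCounts and the GRCm38 build are named per the submitters' processing notes. No source used here states their versions, the annotation, the strand setting or molecular identifiers, so PCR copies may be counted.

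Counts by symbol were scaled to 1000000 per cell (CPM). The line difference is the mean log2(CPM + 1) over Sst-line cells minus that over Htr3a-line cells, computed for every gene, with a size of 1 as the call. The log2 ratio of sums has 1 added to the summed CPM of each line, which shrinks it for genes with low sums. Shares carry Clopper-Pearson and sums Poisson intervals. Lengths are merged exons of GENCODE M21, in which all 128 listed genes matched. All 10 genes are named. From each other list, up to 3 genes with the largest difference among those read in at least 12 cells are named, and the partner gene of each regulator read in at least 35 cells. The genes and lists were chosen with earlier results of these data known. The line difference was also computed on shuffled counts with known changes put in, which checks the arithmetic only. Alternatives were 5 reads or 10 CPM for a read gene, a pseudocount of 10, edgeR 4.0.16 TMMwsp and DESeq2 1.42.0 poscounts factors, thinning to 5000000 reads, other lengths, 100 family reads, and each cell left out. Leaving out Htr3a-line replicates 4 and 20 together was tried too. For shares and paralogue choice this was chosen after seeing the data, as were keeping cells with at least 5000 genes read and the wider families. Python 3.11.15, numpy 2.4.6, pandas 2.3.3 and R 4.3.3 were used.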

Additional observations from a re-analysis of the deposited data

How the results depend on the processing

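Of 2 genes lower in the Sst line by at least 1 (Rbfox1 and Nova1), 0 were left with a pseudocount of 10 and 1 by summed CPM. Of all 11196 genes above the minimum, 1671 were lower by at least 1. That number was 185 with a pseudocount of 10 and 1202 by summed CPM. With each cell left out in turn the number of the 9 genes lay between 1 and 3. It was 1 without Sst-line replicate 15, 17, 19 or 22 and 3 without Htr3a-line replicate 4 (Elavl2 at -1.06 as the third). Of all genes, 1491 were lower without Sst-line replicate 17 and 1887 without Htr3a-line replicate 4. The deposited normalized table also gave 3, Rbfox1 (-1.55), Rbfox2 (-1.51) and Nova1 (-2.41), and with it 3615 of the 11196 genes were lower by at least 1. Its values are counts divided by 0.144 to 2.09 and are larger than CPM in every cell. The same 1 was added to them, so it weighed less than beside CPM. That effect was not separated from the scaling between cells. By summed CPM 1 gene (Nova2) was higher by at least 1, where the mean gave 0. Of the 11196 genes, 1101 were higher by summed CPM and 475 by the mean. The share of Htr3a-line cells led by Rbfox2 was 0% without replicates 4 and 20, and also in cells with at least 5000 genes read, against 8.70% in all. With 10 CPM as the minimum, the mean number of the genes read per Htr3a-line cell was 6.52. The median line difference of all genes was -0.22, and lay between -0.45 with the deposited normalized table and 0.02 by summed CPM. No called value changed sign under these alternatives. No paired analysis was possible because replicate numbers were given in accession order and no test was made. Genes at a few CPM, chiefly Nova2 and Khdrbs2, are limited by depth and by the genes read per cell.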
